A study of Homo sapiens with 4 samples.

Results

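The genes described here are 49 genes of glucose breakdown to lactate and of the response to low oxygen, among 20037 protein-coding genes of the RefSeq table. They were listed by name, with earlier results of these data known. Each was searched for peaks of the transcription factor SPIB whose summit fell in its span or at most 5 kb outside. The peaks came from chromatin immunoprecipitation with sequencing (ChIP-seq) in H1703, an established lung squamous carcinoma cell line that was made to overexpress SPIB, an ETS-family factor known from B cells. The antibody was anti-FLAG M2, which binds the FLAG tag. Attached and suspended cells each gave 1 ChIP and 1 input library (sonicated DNA without antibody), and all 4 came from SPIB-overexpressing cells. The labels name suspension for 24 h in the treatment text of every library, including those whose condition is given as attached, and the condition label was used. Cells without SPIB overexpression were not analysed here. RNA was not measured, so neither the cell type nor the activity of the genes could be checked, and with 1 ChIP library per condition no difference between conditions has a replicate check or a p-value. The ChIP libraries held 21108364 (attached) and 20766909 (suspended) tags after filtering, and the authors called 462 and 9024 peaks in them.

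Glycolysis splits glucose into pyruvate in a preparatory phase that spends ATP and a pay-off phase that returns it, and lactate dehydrogenase turns pyruvate into lactate, which leaves the cell through monocarboxylate transporters. Pyruvate dehydrogenase instead feeds pyruvate to the mitochondria, and its kinases switch it off. When oxygen is low, the prolyl hydroxylases (EGLN genes) stop marking the alpha subunits of hypoxia-inducible factor (HIF) for destruction by VHL, and HIF then raises the transcription of many glycolytic genes, of VEGFA and of carbonic anhydrases; many tumours run glycolysis at a high rate also in the presence of oxygen.

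In suspended cells 22 of the 49 genes (44.9%) had a peak, against 28.6% of all protein-coding genes. In attached cells 1 did (2.04%), PGK1, against 1.86% of all protein-coding genes. Of the 22 genes with a suspended peak, 12 were enzymes of glycolysis itself, which made up 19 of the 49 genes. These were 6 of 10 preparatory phase enzymes, 5 of 7 pay-off phase enzymes and 1 of 2 lactate dehydrogenase genes, together 12 of 19. Genes of like span, as set out below, give 2.82, 1.61, 0.536 and 4.97 of these. Within 1 kb of a gene end it was 1 of 10 preparatory phase enzymes (genes of like span 1.4) and 4 of 7 pay-off phase enzymes (0.923). In the upper 50% of the suspended list by score, 12 of the 49 genes had a peak (24.5%, against 18.0%). No peak in either list was found for pyruvate dehydrogenase and its kinases (0 of 5) or for the HIF subunits (0 of 3). Genes of like span give 1.55 and 0.975 with a suspended peak. Summits within 1 kb of a gene end were found for 10 of the 49 genes in suspended cells (20.4%, against 13.8% of all protein-coding genes) and for 1 in attached cells (2.04%, against 0.809%). The suspended count near gene ends moved with the limit: within 500 bp of an end it was 4 genes (8.16%, against 10.1%), and within 2 kb it was 15 (30.6%, against 16.7%). Within 1 kb it was 6 genes (12.2%) both with the authors' false discovery rate (FDR) of at most 5%, against 12%, and in the upper 50% of peaks by score, against 9.43%. A RefSeq start site with its strand was at hand for 43 of the genes, all but PFKFB2, SLC2A3, SLC16A1, VHL, VEGFA and NDRG1. Of these 43, 5 (ALDOA, PGK1, PGAM1, LDHB and P4HA1) had a suspended summit within 1 kb of a listed start (11.6%, against 14.7% of the 15843 protein-coding genes with such an entry), and PGK1 alone had an attached one (2.33%, against 0.77%).

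Long genes have more room for a peak, so the genes were also set beside protein-coding genes of like span. The shares of all protein-coding genes with a suspended peak in 4 classes of span, summed over the 49 genes, come to 13.8 genes, where 22 had one. The gap lay mainly in the genes under 10 kb, of which 7 of 11 (63.6%) had a peak, against 18.8% of all protein-coding genes of that span. These 7 were ALDOA, TPI1, GAPDH, PGAM1, ENO2, ENO3 and EGLN2. From 30 to 100 kb the share was 35.0% (7 of 20), close to 32.5% of all genes of that span. By role, 2 of 4 transporters had a suspended peak (span classes 1.19), as did 2 of 4 PFKFB genes (1.39). It was 2 of 5 for the oxygen-sensing genes (1.32) and 4 of 9 for the HIF-responsive genes with the VEGF receptor (2.46).

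**Figure D1:**
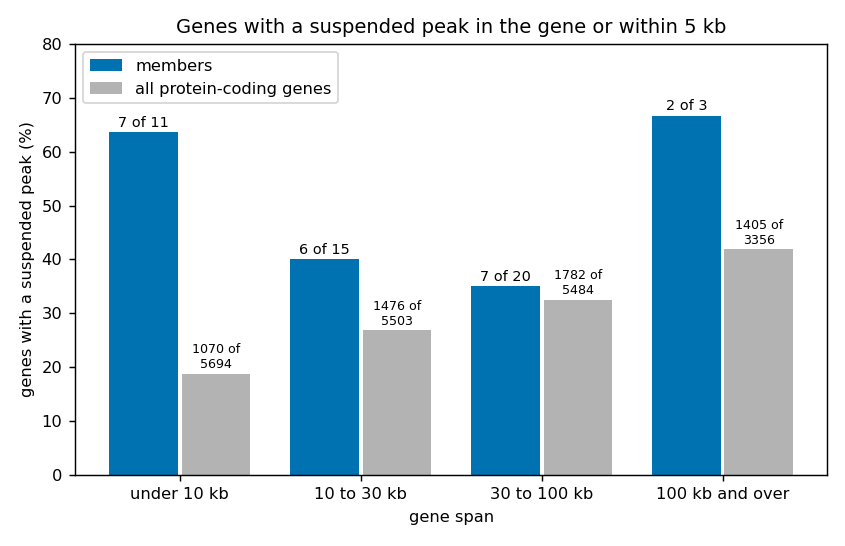
Percent of genes with a suspended peak in their span or at most 5 kb outside, by gene span, for the 49 glycolysis and hypoxia genes (blue) and all protein-coding genes (grey), with the counts above the bars. Under 10 kb, 7 of 11 members had a peak against 1070 of 5694 genes, and from 30 to 100 kb the bars are nearly level.

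PGK1, which encodes the first ATP-forming enzyme of the pay-off phase, was the one gene with a peak in both lists. The attached peak at chromosome X, 78103878 to 78104421 (hg38), held 53 tags (95% Poisson interval 39.7 to 69.3), with a fold of 10.82 over local background, a score of 88.36 (minus 10 times log10 of the p-value of the peak caller) and an FDR of 19.05%. The suspended peak at 78103701 to 78104413 held 69 tags (53.7 to 87.3), with a fold of 8.99, a score of 127.46 and an FDR of 0.3%. The summits of both were 16 bp apart, 12 and 28 bp after the RefSeq start. Scaled to the filtered ChIP tags of each library, the suspended peak held 1.32 times the tags of the attached one (95% interval from the exact binomial split of tags 0.912 to 1.93). Per bp of called peak the ratio was 1.01, since the suspended peak was wider (713 against 544 bp). That interval covers counting error only, from 1 library per condition and over peaks of unequal width, and is no test between conditions. By score it was peak 63 of 462 in the attached list and peak 328 of 9024 in the suspended list. The promoter window lies wholly inside both peaks and is shown for that reason, from 250 bases before to 49 after the start base (RefSeq, GRCh38.p14, chrX:78103998-78104297, plus strand), with the ETS core GGAA, read on either strand, in capitals:
PGK1 promoter: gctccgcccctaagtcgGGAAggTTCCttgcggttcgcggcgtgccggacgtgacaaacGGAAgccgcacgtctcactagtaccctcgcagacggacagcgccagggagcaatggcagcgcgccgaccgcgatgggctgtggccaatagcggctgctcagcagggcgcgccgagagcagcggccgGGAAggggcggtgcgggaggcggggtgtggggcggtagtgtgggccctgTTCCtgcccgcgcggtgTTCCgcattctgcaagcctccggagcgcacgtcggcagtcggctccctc
It holds 6 GGAA cores, at -233, -227, -191, -65, -16 and 1, counted in bases from the start base as 0 to the first base of the match. The HIF core ACGTG lies at -202, -183 and 28 on either strand, and its variant GCGTG at -211.

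Among transporters, SLC16A1 and SLC16A3 had a suspended peak and SLC2A1 and SLC2A3, the genes of the glucose transporters GLUT1 and GLUT3, had none. SLC16A1 encodes the lactate transporter MCT1, and its peak at chromosome 1, 112955596 to 112955928, held 18 tags (10.7 to 28.4) with a fold of 7.02, a score of 64.96 and an FDR of 2.46%. The summit lay 542 bp inside the gene and 761 bp from an end of its antisense gene SLC16A1-AS1. SLC16A3 encodes MCT4, which exports lactate from strongly glycolytic cells. Its peak at chromosome 17, 82212920 to 82213332, held 23 tags (14.6 to 34.5; fold 6.55, score 54.27, FDR 4.85%). That summit was 4696 bp outside SLC16A3 and 396 bp before the start of CCDC57, so it was the nearer to CCDC57. The nearest suspended summits lay 10.1 kb from SLC2A3 and 88.3 kb from SLC2A1.

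In the preparatory phase all 3 phosphofructokinase genes, which encode the enzyme of the committed step, had 1 suspended peak each. PFKM (muscle type) had 29 tags (19.4 to 41.6) at chromosome 12, 48119091 to 48119558, with a fold of 6.13, a score of 68.85 and an FDR of 1.82%, 3185 bp before the nearest of its listed starts. PFKP (platelet type) had 18 tags (10.7 to 28.4) at chromosome 10, 3103209 to 3103539 (fold 6.14, score 56.94, FDR 4.13%), 1249 bp before a listed inner start. PFKL (liver type) had 14 tags (7.65 to 23.5) at chromosome 21, 44328920 to 44329160 (fold 7.02, score 57.23, FDR 4.12%). The PFKL summit was 1692 bp outside the gene and 121 bp from an end of CFAP410. The intervals of these 3 counts overlap.

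Of the other preparatory enzymes, HK1, ALDOA and TPI1 had a suspended peak, and HK2, HK3, GPI and ALDOC had none. HK1, a hexokinase gene, had 28 tags (18.6 to 40.5) at chromosome 10, 69392373 to 69392816, deep in the gene, with a fold of 4.59, a score of 50.75 near the lower limit of the list, and an FDR of 6.3%. ALDOA, the main aldolase gene, had 16 tags (9.15 to 26.0) at chromosome 16, 30065121 to 30065399 (fold 7.71, score 51.63, FDR 5.72%), 507 bp before a listed start. TPI1 encodes triosephosphate isomerase and had a peak on each side of the gene, both on chromosome 12. The first, at 6864911 to 6865466, held 37 tags (26.1 to 51.0; fold 4.01, score 60.64, FDR 3.25%) and the second, at 6870946 to 6872942, held 143 (121.0 to 168.0; fold 3.34, score 58.05, FDR 4.01%). Their summits were nearer to an end of USP5 (1326 bp) and SPSB2 (1176 bp) than to TPI1 (2114 and 1179 bp).

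The PFKFB genes encode the enzymes that set fructose 2,6-bisphosphate, the main activator of phosphofructokinase. PFKFB3, the strongly kinase-active form, had 2 suspended peaks in its first part, at chromosome 10, 6151205 to 6151613 with 24 tags (15.4 to 35.7; fold 6.7, score 61.73, FDR 3.02%) and at 6163790 to 6164162 with 32 tags (21.9 to 45.2; fold 6.11, score 66.51, FDR 2.29%). They lay 6453 and 19106 bp after the start. PFKFB4 had 16 tags (9.15 to 26.0) at chromosome 3, 48561312 to 48561581 (fold 7.53, score 52.15, FDR 5.72%), 285 bp from an end of UCN2, a gene within the same stretch. PFKFB1 and PFKFB2 had none, and the nearest suspended summit to PFKFB1 was 1850 kb away.

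The peaks with most tags were at GAPDH and ENO2 of the pay-off phase and TPI1 of the preparatory phase, neighbours on chromosome 12. GAPDH, the dehydrogenase that opens the pay-off phase, had 189 tags (163.0 to 218.0) in a peak 1848 bp wide at chromosome 12, 6533171 to 6535018. That peak had a fold of 5.46, a score of 164.59 and an FDR of 0.0%. Its summit was 966 bp before the gene span and 856 bp from an end of the divergent transcript GAPDH-DT. A second GAPDH peak at 6536852 to 6537694 held 60 tags (45.8 to 77.2; fold 4.6, score 54.94, FDR 4.67%). ENO2, the neuronal enolase gene, had 3 peaks. The one inside the gene, at 6919352 to 6919895, held 32 tags (21.9 to 45.2; fold 4.65, score 52.21, FDR 5.67%). The other two lay beyond its end towards ATN1, at 6924821 to 6926270 with 136 tags (114.0 to 161.0; fold 3.78, score 107.89, FDR 0.18%) and at 6927224 to 6929242 with 195 tags (169.0 to 224.0; fold 5.34, score 215.12, FDR 0.0%). Both were nearer to an end of ATN1 (1501 and 2911 bp) than of ENO2 (2263 and 3673 bp). The summit of the peak with 195 tags was nearer still to an end of the gene LOC124902868, at 326 bp.

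GAPDH, TPI1 and ENO2 are neighbours on chromosome 12 and are not independent of one another. From 5 kb before GAPDH to 5 kb after ENO2, a stretch of 399 kb, there were 31 suspended summits, or 7.77 per 100 kb, where the whole list gives 0.278 per 100 kb of the effective genome size in the header. Without these genes 19 of the remaining 46 (41.3%) had a suspended peak, against 28.6% of all protein-coding genes.

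PGAM1 and ENO3 had the remaining pay-off peaks, and ENO1 and PKM, the most widely expressed enolase gene and the pyruvate kinase gene of proliferating cells, had none. PGAM1, a phosphoglycerate mutase gene, had 24 tags (15.4 to 35.7) at chromosome 10, 97426488 to 97426935 (fold 5.71, score 52.92, FDR 5.28%), 944 bp before its listed start. ENO3, the muscle enolase gene, had 4 peaks within 4.51 kb on chromosome 17, between 4945222 and 4949727, with 24, 22, 24 and 27 tags in order of position. Their folds were 7.45, 6.52, 6.59 and 7.45, their scores 70.53, 70.75, 52.8 and 52.87, and their FDR 1.65%, 1.67%, 5.37% and 5.36%. The first 3 summits lay outside ENO3 and nearer to an end of PFN1, the profilin gene, at 202, 987 and 584 bp. The fourth was 693 bp inside ENO3 and 873 bp before the start of PFN1. The nearest suspended summit was 402.0 kb from ENO1 and 145.0 kb from PKM.

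**Figure D2:**
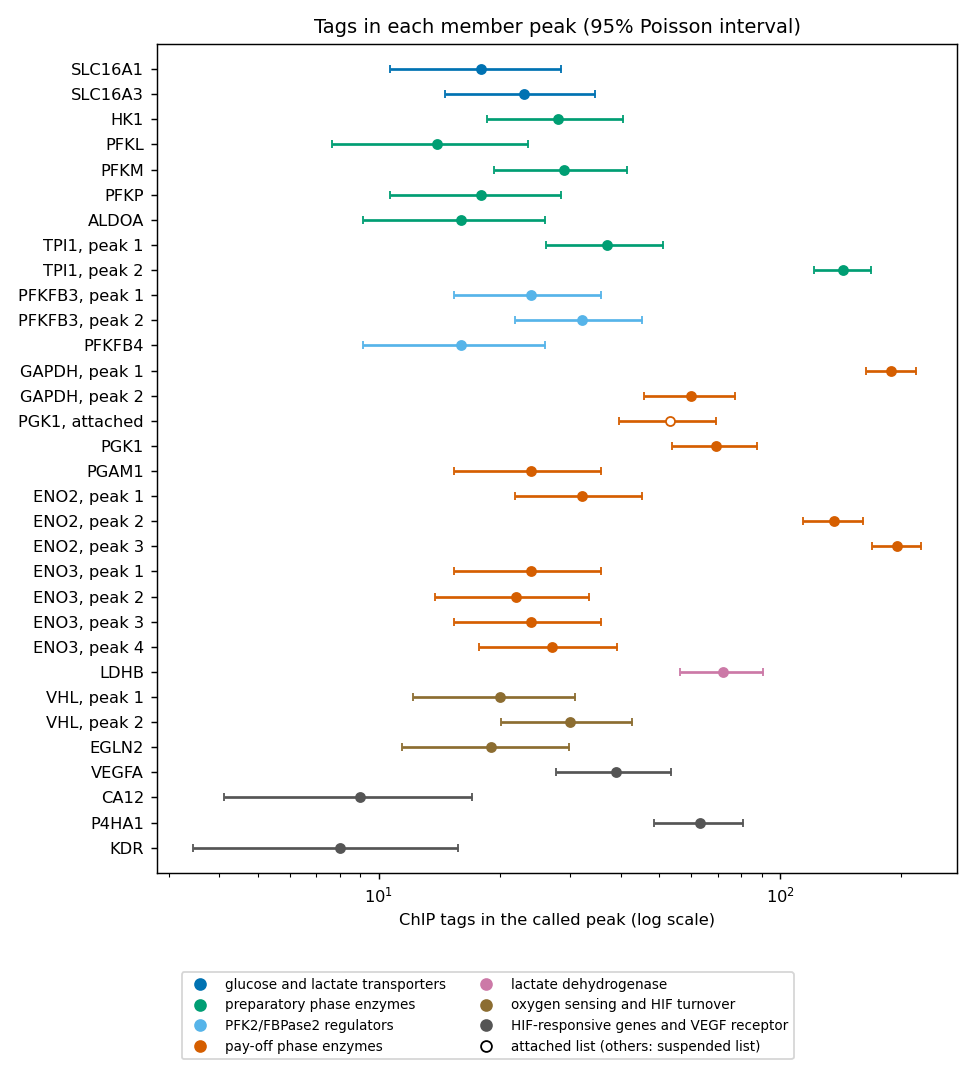
ChIP tags in each of the 31 suspended peaks of the 22 genes (filled) and in the attached PGK1 peak (open), on a log axis, with exact Poisson 95% intervals that cover counting error only; colours give the role of the gene. The 4 peaks of 136 to 195 tags are at GAPDH, TPI1 and ENO2, and all peaks of the other genes hold 72 tags or fewer.

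LDHB and LDHA encode the heart-type and muscle-type subunits of lactate dehydrogenase, the second being a classic HIF target. LDHB had a suspended peak with 72 tags (56.3 to 90.7) at chromosome 12, 21657029 to 21657983, with a fold of 5.81, a score of 84.03 and an FDR of 0.67%, and its summit lay 401 bp after the start. LDHA had no peak, and the nearest suspended summit was 50.8 kb away. Both promoters are shown to set the covered one beside the uncovered one, with GGAA cores on either strand in capitals (RefSeq, GRCh38.p14; LDHB at chr12:21657793-21658092, minus strand, of which 191 bases lie in the peak; LDHA at chr11:18394313-18394612, plus strand, the first of its 2 listed starts):
LDHB promoter: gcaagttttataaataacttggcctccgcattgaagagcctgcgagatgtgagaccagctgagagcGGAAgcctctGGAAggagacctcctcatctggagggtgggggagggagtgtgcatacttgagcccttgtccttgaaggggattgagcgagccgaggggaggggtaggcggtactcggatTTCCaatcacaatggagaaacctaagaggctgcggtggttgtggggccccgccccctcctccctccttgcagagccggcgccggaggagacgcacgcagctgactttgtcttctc
LDHA promoter: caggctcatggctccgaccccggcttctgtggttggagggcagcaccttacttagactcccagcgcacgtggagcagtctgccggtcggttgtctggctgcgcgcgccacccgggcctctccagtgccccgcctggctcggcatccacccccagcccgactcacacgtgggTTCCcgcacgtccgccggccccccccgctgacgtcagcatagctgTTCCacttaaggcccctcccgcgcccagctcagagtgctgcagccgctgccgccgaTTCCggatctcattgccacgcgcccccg
Each window holds 3 GGAA cores, LDHB at -184, -174 and -65 and LDHA at -79, -34 and 22. Of those in LDHB only the core at -65 lies in the peak. The longer ETS word CCGGAA is found in the LDHA window, at 22, and not in the LDHB window. Counted on both strands, ACGTG has matches in the LDHA window at -185, -184, -87, -86 and -73, and none in the LDHB window. Those at -185 and -184 are a single CACGTG read on both strands, and so are those at -87 and -86. GCGTG lies at 38 in the LDHA window and at 27 in the LDHB window. The second listed LDHA window, not shown, holds 6 GGAA cores and no ACGTG.

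No peak was found at PDHA1, which encodes a subunit of pyruvate dehydrogenase, at the kinase genes PDK1, PDK2, PDK3 and PDK4, or at the HIF subunit genes HIF1A, EPAS1 and ARNT. Span classes give 1.55 of the 5 pyruvate dehydrogenase and kinase genes and 0.975 of the 3 HIF subunit genes with a suspended peak. The nearest suspended summits lay between 14.5 kb (EPAS1) and 374.0 kb (PDK4) away. The peak lists hold called sites only, so these genes are not shown to be unbound.

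Among the oxygen-sensing genes VHL and EGLN2 had suspended peaks, while EGLN1, EGLN3 and the asparaginyl hydroxylase gene HIF1AN had none. VHL, the substrate receptor of the HIF ubiquitin ligase, had 20 tags (12.2 to 30.9) at chromosome 3, 10141573 to 10141952 (fold 5.34, score 50.39, FDR 6.32%) and 30 tags (20.2 to 42.8) at 10142558 to 10143061 (fold 4.82, score 57.45, FDR 4.02%). These summits lay 145 bp outside and 1017 bp inside the same end of the gene. EGLN2 had 19 tags (11.4 to 29.7) at chromosome 19, 40806677 to 40807042 (fold 6.3, score 70.09, FDR 1.71%), 7269 bp after the nearest listed start and within the span of the read-through gene RAB4B-EGLN2.

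Of the 9 HIF-responsive genes with the VEGF receptor, P4HA1, VEGFA, CA12 and KDR had suspended peaks, and CA9, ADM, ANKRD37, NDRG1 and P4HA2 had none. P4HA1, a collagen prolyl hydroxylase subunit gene, had 63 tags (48.4 to 80.6) at chromosome 10, 73096134 to 73097093, with a fold of 7.28, a score of 179.25 and an FDR of 0.0%. It ranked 110 by score among the 9024 peaks, the highest of these genes outside the chromosome 12 stretch, and its summit was 316 bp after the start. VEGFA, the vascular growth factor gene, had 39 tags (27.7 to 53.3) at chromosome 6, 43770582 to 43771169 (fold 5.24, score 77.73, FDR 1.05%), 751 bp inside an end of the gene. CA12, a membrane carbonic anhydrase gene, had 9 tags (4.12 to 17.1) at chromosome 15, 63380560 to 63380729 (fold 9.64, score 56.49, FDR 4.24%), 1230 bp after its start. KDR encodes the main VEGF receptor and lies beside PDGFRA, a gene amplified in some lung squamous carcinomas. It had 8 tags (3.45 to 15.8), the lowest number of any peak in the list, at chromosome 4, 55117341 to 55117500 (fold 14.9, score 58.71, FDR 3.65%).

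The P4HA1 window is shown because 277 of its 300 bases lie in that strong peak (RefSeq, GRCh38.p14, chr10:73096817-73097116, minus strand; GGAA cores on either strand in capitals):
P4HA1 promoter: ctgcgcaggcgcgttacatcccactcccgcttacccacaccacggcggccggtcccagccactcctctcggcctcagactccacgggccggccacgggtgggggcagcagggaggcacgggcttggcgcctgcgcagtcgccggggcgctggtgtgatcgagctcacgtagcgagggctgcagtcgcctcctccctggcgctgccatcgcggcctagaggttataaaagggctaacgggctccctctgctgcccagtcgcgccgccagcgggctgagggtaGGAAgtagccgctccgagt
It holds a single GGAA core, at 31, and 1 ACGTG core, at -86. GAGGAA is the word of the purine-rich box that SPIB and its relative PU.1 are known to favour. The windows of PGK1, LDHB and P4HA1 hold neither GAGGAA nor CCGGAA. The LDHB and P4HA1 summits, 401 and 316 bp after the start, lie outside these windows, so the sequence at those summits was not read. Over all 35116 promoter windows of this length, GGAA (either strand) was present in 95.5%, GAGGAA in 27.9% and CCGGAA in 17.2%, with GGAA contained in the other two. In the 1407 windows of which at least 150 bases lay in a suspended peak, GAGGAA was present in 36.2% and CCGGAA in 33.4%, against 27.5% and 16.6% of the remaining windows. The 75 windows of these genes held GAGGAA in 32.0% and CCGGAA in 21.3%. For the HIF cores, ACGTG was in 33.3% of the genes' windows and 21.4% of all windows, and GCGTG in 36.0% and 36.5%. Windows of 1 gene can overlap and are not independent.

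The 31 suspended peaks of these genes were wide and of low fold beside the list as a whole. Their median width was 448.0 bp, against 279.0 bp for the 6564 suspended peaks at protein-coding genes by the same rule, and the median tag count was 27.0 against 17.0. Their median fold was 6.14, against 8.67. Of the 31 peaks 29 lay below 9.1, the median fold of the whole list, and only KDR and CA12 reached it (6.45%, against 44.8% of the gene-linked peaks). Leaving out GAPDH, TPI1 and ENO2, 22 of 24 peaks were still below it, with a median width of 394.5 bp and a median fold of 6.57. The 30 suspended peaks of the 3 further lists of genes from the same pathways were much alike, with a median width of 370.0 bp, a median fold of 7.04 and 23 of 30 below 9.1. Per 100 bp of peak the median was 5.95 tags, against 5.81. In score the genes' peaks were close to the list as a whole, with a median of 58.7 against 59.1. The widest were the 4 peaks over 1 kb, all at GAPDH, TPI1 and ENO2.

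**Figure D3:**
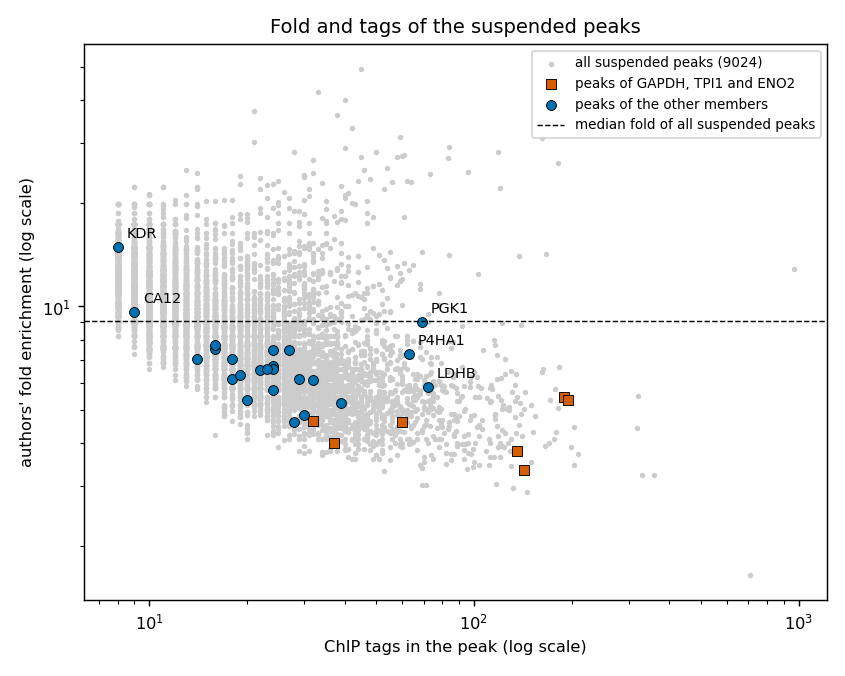
Authors' fold enrichment against ChIP tags, both on log axes, for all 9024 suspended peaks (grey), the 7 peaks of GAPDH, TPI1 and ENO2 (squares) and the 24 of the other genes (circles); the dashed line is the median fold of the list, 9.1. KDR and CA12 lie above the line at few tags, and all other peaks of these genes lie below it.

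The genes with a peak also lay where suspended peaks were dense. Counting suspended summits within 500 kb of a gene, its own peaks left out, the median was 11.0 for the 22 genes with a peak, 4.0 for the 27 without and 4.0 for all protein-coding genes. More than 14 such summits, called crowded here, were found for 11 of the 49 genes (22.4%), against 8.87% of all protein-coding genes. GAPDH had most, at 55, and GAPDH, TPI1 and ENO2 count one another's peaks. Of the 7 short genes with a peak, all but ENO3 were crowded. Outside crowded regions 14 of 38 genes (36.8%) had a suspended peak, against 26.4% of the protein-coding genes there, and within them 8 of 11 (72.7%), against 50.8%. Peaks were thus more frequent in crowded regions among all protein-coding genes too. PGK1 had no other suspended summit within 500 kb.

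**Figure D4:**
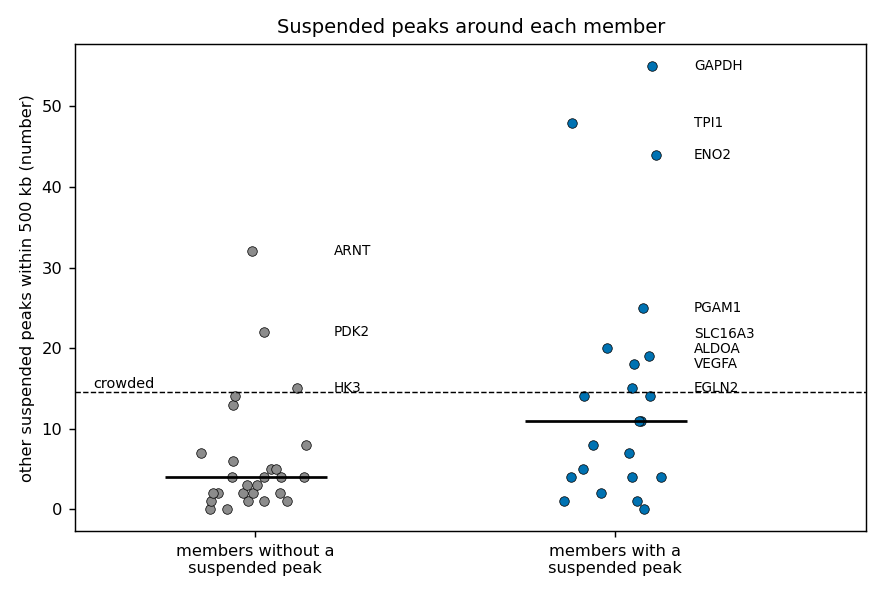
Number of other suspended peaks within 500 kb of each of the 49 genes, for the 27 without and the 22 with a suspended peak; bars are medians (4.0 and 11.0) and the dashed line marks the limit of crowded regions (more than 14). GAPDH, TPI1 and ENO2 stand highest, and ARNT, PDK2 and HK3 are crowded without a peak of their own.

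The 3 further lists of the same pathways gave counts near or below those that span classes give. Of 29 other genes of glycolysis, gluconeogenesis and the pentose phosphate route, 5 had a suspended peak (17.2%), where span classes give 8.05. PGAM2, the muscle mutase gene, had peaks of 25 tags (16.2 to 36.9) and 36 tags (25.2 to 49.8) near a gene end, TIGAR, a brake on glycolysis that p53 induces, had 20 tags (12.2 to 30.9), and PCK2, mitochondrial PEP carboxykinase, had 11 (5.49 to 19.7). Of 24 genes of pyruvate entry and the TCA cycle 6 had one (25%, span classes 6.85). Those at a gene end were DLAT (18 tags) and PDP2 (28 tags), which act in or on pyruvate dehydrogenase, IDH3G (23 tags) and SDHA (62 tags). Of 32 other HIF pathway and HIF-responsive genes 10 had one (31.2%, span classes 9.58), among them TFRC (33 tags), BNIP3 (13), ELOB (18), DDIT4 (50 and 30) and CITED2 (57, 26 and 17) at a gene end. In attached cells ELOC alone among the 85 genes of these lists had a peak, with 15 tags (8.4 to 24.7) and an FDR of 100%. Span classes give 0.477, 0.416 and 0.631 genes with an attached peak for the 3 lists in the order above. Of all protein-coding genes 1.86% had one.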

How the data were processed

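Peaks are the authors' MACS 1.4.2 calls, made for each ChIP library with the input from the same condition as control, per the file headers (p cutoff 1e-05, band width 200 bp, 1 tag kept per position, larger library scaled to the smaller). The build is hg38, per the submitters' processing notes; no aligner is named in the sources used here. Tags are the deposited raw counts per peak. Fold is the authors' ratio of ChIP to local background. The deposited score column has lost its name; its place and lowest value mark it as minus 10 times log10 of the p-value. FDR is the authors' percent from exchanging ChIP and input, and was 100 for 305 attached peaks. It was at most 6.42 in the suspended list. Fold, score and FDR were used only within a list.

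Summits (start plus summit minus 1) were assigned to gene spans of the RefSeq GRCh38.p14 table, which has no strand, with Python 3.11.15, numpy 2.4.6, pandas 2.3.3, SciPy 1.17.1 and matplotlib 3.10.9. Start sites came from the RefSeq promoter table. That table is incomplete, so gene ends were counted for all 49 genes and starts for 43. In it, 2703 of 2703 overlapping windows on opposite strands were exact reverse complements. The assignment was tested on simulated data. Tag intervals are exact Poisson and cover counting error only. No test between conditions was made. The genes, roles, lists and alternatives were chosen with earlier results of these data known. Every gene with a peak is named, and from the further lists those with a peak at a gene end, except 1 that is not reported here.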

Additional observations from a re-analysis of the deposited data

How the results depend on the processing

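The counts were recomputed under 28 alternatives, of which 21 stayed within 1.5 times the reported value. The 22 genes with a suspended peak became 12 in the upper 50% of the list by score (24.5%, against 18.0% of protein-coding genes). They became 14 of 38 outside crowded regions (36.8%, against 26.4%). Otherwise the count stayed between 18 and 23, while the share of all protein-coding genes moved too. The count was 19 with the summit inside the span (38.8%, against 20.3%) and 23 with a flank of 10 kb (46.9%, against 32.2%). At an FDR of at most 5% it was 18 (36.7%, against 24.2%). The 10 genes with a suspended summit within 1 kb of a gene end became 4 within 500 bp, 15 within 2 kb (30.6%, against 16.7%), 6 at an FDR of at most 5% and 6 in the upper 50% by score (12.2%, against 9.43%). The 1 attached gene, PGK1, became 0 at an FDR of at most 5%, over the gene (against 0.105% of protein-coding genes) and at its ends (against 0.0399%). Only 25 of the 462 attached peaks pass that limit. The alternatives on crowded regions, on GAPDH, TPI1 and ENO2, and on the nearer gene were chosen after seeing the data. Under the last, 18 genes remained (36.7%), since every peak of PFKFB4, PFKL, SLC16A3 and TPI1 was nearer to another protein-coding gene. The share of all protein-coding genes was not computed under that rule, so this count has no background beside it. No paired analysis was possible because each condition has 1 ChIP library. Tags below about 8 do not appear in either list, which limits what an absent peak can show.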
